A study of Mus musculus with 6 samples.

Results

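The 41 genes described here encode 40 nuclear-encoded subunits of the 5 oxidative phosphorylation complexes and cytochrome c, the soluble electron carrier. They were chosen by name as subunits, and every one of them was measured, by 1 transcript cluster each (a set of probes that mostly stands for a gene), among 22206 clusters tested. Renal tubular epithelial cells had been released by collagenase from mouse kidneys made ischemic for 30 min and then reperfused for 24 h, and each of the 6 samples was hybridised to 1 whole-transcript array. The control group (labelled IR) received vehicle and the other group (labelled IRPT) received PT2385, with 3 samples each. PT2385, which blocks the pairing of HIF-2α with ARNT, was injected at a dose of 10 mg/kg, first 16 h before surgery and then 1, 8 and 20 h after it. The protocol spells the injected compound PT2384 at 1 place. Both groups went through the same injury, no uninjured sample was analysed here, and the labels used here give neither strain, age nor sex of the mice, nor say whether a sample came from 1 animal.

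Oxidative phosphorylation couples the transfer of electrons from NADH and succinate to oxygen with the pumping of protons across the inner mitochondrial membrane, and ATP synthase uses the returning protons to make ATP. Complex I takes electrons from NADH and complex II from succinate, complex III passes them through cytochrome c to complex IV, and complex V is the ATP synthase. Proximal tubule and thick ascending limb cells are packed with mitochondria, because they pay for salt reabsorption almost wholly with mitochondrial ATP, and they are the cells most sensitive to ischemia. Of the 41 genes, 16 belong to complex I, 4 to complex II, 6 to complex III, 9 to complex IV and 5 to complex V, and Cycs is kept apart. Ndufa4, named after complex I, is counted with complex IV, where the protein is now placed.

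Transcription of many of these genes is known to involve NRF1, ETS-family factors such as GABP, YY1 and the estrogen-related receptors, acting close to the start of the gene. Promoter windows of 250 bases before to 50 bases after the start were taken from RefSeq (GRCm38.p6) and were found for 30 of the 41 genes, 1 window a gene at its most upstream listed start. The 250 bases before the start are printed for 4 genes that the values below turn on. These are Ndufa5 and Cox7b, which had the smallest p-values, Sdha, the complex II member with the smallest p-value, and Cycs, whose difference had the opposite sign. All are written 5′ to 3′ on the gene's own strand, and capitals mark matches to the letters searched for.
Ndufa5 (chr6:24527691-24527940, minus strand): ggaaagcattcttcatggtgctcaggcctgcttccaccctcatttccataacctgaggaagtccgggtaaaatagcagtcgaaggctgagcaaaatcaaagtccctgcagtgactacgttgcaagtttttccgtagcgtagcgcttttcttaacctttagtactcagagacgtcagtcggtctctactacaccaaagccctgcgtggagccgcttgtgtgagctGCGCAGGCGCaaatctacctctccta
Sdha (chr13:74350241-74350490, minus strand): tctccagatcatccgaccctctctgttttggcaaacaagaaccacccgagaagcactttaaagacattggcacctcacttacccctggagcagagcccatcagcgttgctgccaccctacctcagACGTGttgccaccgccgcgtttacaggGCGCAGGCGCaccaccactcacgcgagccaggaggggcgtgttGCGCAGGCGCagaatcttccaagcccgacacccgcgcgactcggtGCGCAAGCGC
Cox7b (chrX:106015450-106015699, plus strand): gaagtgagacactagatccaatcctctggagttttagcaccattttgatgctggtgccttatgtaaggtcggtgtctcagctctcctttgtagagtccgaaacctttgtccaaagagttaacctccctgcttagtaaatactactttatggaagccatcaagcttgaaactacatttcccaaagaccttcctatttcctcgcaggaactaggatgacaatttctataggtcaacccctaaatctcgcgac
Cycs (chr6:50566570-50566819, minus strand): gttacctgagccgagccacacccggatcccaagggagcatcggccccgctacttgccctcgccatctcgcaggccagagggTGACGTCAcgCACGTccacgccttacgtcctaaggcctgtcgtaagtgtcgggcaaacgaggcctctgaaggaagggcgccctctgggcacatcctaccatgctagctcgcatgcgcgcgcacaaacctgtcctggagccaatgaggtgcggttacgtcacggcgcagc

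Letters were searched on both strands of the whole windows, and a match describes the sequence and not a bound site. The NRF1 letters, as in the GCGCAGGCGC of the Ndufa5 stretch but with any base in the sixth place, were in 7 of 30 windows of these genes (23.3%) and in 4.82% of all 27025 windows. In the Ndufa5 stretch the match runs from position -26 to -17, counted back from the last printed base as -1, and the Sdha stretch holds 3 matches, the nearest of which ends at position -1. The ETS letters CCGGAAG were in 5 of 30 windows (16.7%, against 9.14% of all), the YY1 letters AAGATGGCG in 3 of 30 (10%, against 1.48%) and the estrogen-related receptor letters TCAAGGTCA in 1 of 30 (3.33%, against 0.407%). The cAMP response letters TGACGTCA were in 2 of 30 windows (6.67%, against 1.85%), of Cycs and Uqcrfs1. The core letters ACGTG to which HIF proteins bind were in 7 of 30 windows (23.3%, against 19.6%), among them those of Cycs and Sdha, so their share lay close to that of all windows. None of the 6 sets of letters contains another, and the Cox7b stretch holds none of them.

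The question was whether transcripts of the respiratory chain differ between injured tubular cells of PT2385-treated and vehicle-treated mice, complex by complex. None of the 41 genes passed the threshold of an adjusted p of 0.05 in limma's test over all clusters, where 0.829% of clusters passed (0.333% higher and 0.495% lower in the PT2385 group, 74 and 110 clusters, or 57 and 135 with each array centred on its median), and the smallest adjusted p among them was 0.114. At an unadjusted p under 0.05, 10 of the 41 were higher in the PT2385 group (24.4%, against 7.94% of all clusters) and 0 were lower (against 6.54%). The mean was higher in the PT2385 group for 37 of the 41 (90.2%), where 53.5% of all clusters and 37.9% of the 7364 clusters brighter than every background control row had a higher mean. The median difference, PT2385 minus vehicle, was 0.17 on the log2 scale over the 41 genes, a ratio of 1.13, against 0.02 over all clusters and -0.05 over the brighter clusters. In 17 of the 41 genes (41.5%) all 3 PT2385 arrays lay above all 3 vehicle arrays, a separation seen for 11.6% of all clusters, and in 1 gene they lay below, a separation seen for 9.13%.

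**Figure D1:**
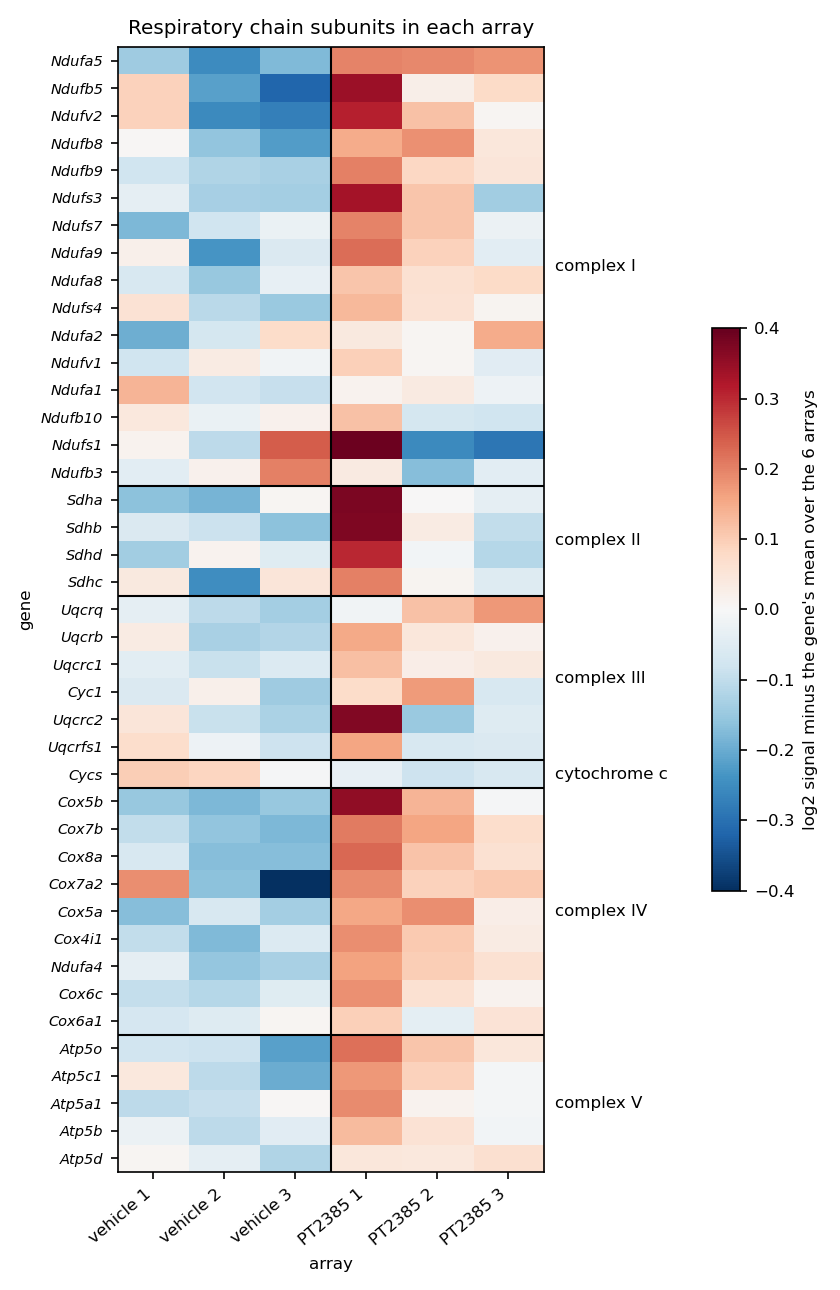
Each row is 1 gene and each column 1 array, and the colour gives the log2 signal minus that gene's mean over the 6 arrays, with complexes separated by lines. PT2385 replicate 1 is the darkest red column and holds the highest value of 32 of the 41 genes, and the Cycs row runs the opposite way from most others.

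Every value of these genes, from 7.67 to 12.38 on the log2 scale, lay above the brightest background control value (7.47). Values of different genes come from probes of different binding strength, so brightest and dimmest below describe signals and not amounts of transcript. Many of these genes have processed pseudogenes, and whether the probes also bind transcripts of such copies was not tested. Across the 41 genes the difference was almost unrelated to the mean signal (Spearman's rho 0.0894 across genes measured on the same 6 arrays, which are not independent replicates).

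Complex I had a median difference of 0.17, with single genes between -0.12 and 0.38, and 13 of its 16 genes had a higher mean in the PT2385 group. Ndufa5, an accessory subunit of the arm that reaches into the matrix, had log2 signals of 9.86, 9.75 and 9.82 with vehicle and 10.20, 10.19 and 10.18 with PT2385. Its groups did not overlap, and its 3 PT2385 values lay within a few hundredths of each other. The difference was 0.38 (SE 0.09, limma adjusted p = 0.114), a ratio of 1.30, and was the largest of the 41. Ndufb9, an accessory subunit of the membrane arm and the brightest of the complex I clusters, had 11.32, 11.28 and 11.27 with vehicle and 11.60, 11.48 and 11.45 with PT2385. The groups did not overlap, and the difference was 0.22 (SE 0.09, limma adjusted p = 0.322).

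Ndufb8, a further accessory subunit of the membrane arm and the dimmest cluster of the complex, had 7.90, 7.74 and 7.67 with vehicle and 8.04, 8.08 and 7.94 with PT2385. The difference was 0.25 (SE 0.10, limma adjusted p = 0.309), and the groups lay apart by a narrow gap. Ndufa8 and Ndufs7, the second of which carries an iron-sulfur cluster next to the quinone site, also had all PT2385 arrays above all vehicle arrays, with differences of 0.17 and 0.19. For Ndufs7 the groups all but touched, at 10.0105 in vehicle replicate 3 and 10.013 in PT2385 replicate 3. Among core subunits the differences were uneven, at 0.04 for Ndufv1, which binds NADH, 0.29 for Ndufv2 and 0.20 for Ndufs3. For these 3 the groups overlapped.

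The 3 complex I genes with a lower mean in the PT2385 group were Ndufb3, Ndufs1 and Ndufb10. Ndufs1, the largest core subunit of the NADH-oxidising module, had 9.47, 9.35 and 9.70 with vehicle and 9.85, 9.20 and 9.17 with PT2385. The PT2385 group thus held both its highest and its lowest values, and the difference was -0.10 (SE 0.19, limma adjusted p = 0.841). Without PT2385 replicate 2 or replicate 3 its sign turned, to 0.000527 and 0.018. Ndufb3, a small membrane-arm subunit, had 8.55, 8.61 and 8.80 with vehicle and 8.63, 8.42 and 8.55 with PT2385, overlapping groups with a difference of -0.12 (SE 0.11). Ndufb10, also of the membrane arm, had 8.02, 7.95 and 8.00 with vehicle and 8.10, 7.91 and 7.90 with PT2385, and its difference of -0.02 (SE 0.10) changed sign under quantile normalization (0.0304), under cyclic loess (0.019) and without PT2385 replicate 2 or 3 (0.00815 and 0.0135).

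The other 5 complex I genes were Ndufa1, Ndufa2, Ndufa9, Ndufb5 and Ndufs4, all accessory subunits. Their differences ran from 0.02 for Ndufa1, on the X chromosome, to 0.30 for Ndufb5 (SE 0.14, limma adjusted p = 0.369), and the groups overlapped in all 5. The difference of Ndufa1 turned negative with centred arrays (-0.0248) and without vehicle replicate 2 or 3 (-0.0118 and -0.0198), and that of Ndufv1 with centred arrays (-0.00619). Without PT2385 replicate 1, Ndufs3 had 0.0872 and Ndufa9 had 0.116.

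Complex II, the only complex whose subunits are all encoded in the nucleus and which is also an enzyme of the tricarboxylic acid cycle, had a median difference of 0.16 and 4 of 4 genes with a higher mean in the PT2385 group. In none of the 4 were the groups apart, where 11.6% of all clusters were apart with PT2385 higher and 9.13% with it lower. With 4 genes, such a count says little. Sdha, the flavoprotein that oxidises succinate, had 9.08, 9.05 and 9.25 with vehicle and 9.62, 9.24 and 9.21 with PT2385, a difference of 0.23 (SE 0.13, limma adjusted p = 0.466). Sdhb, the iron-sulfur subunit, had 10.31, 10.28 and 10.20 with vehicle and 10.74, 10.40 and 10.26 with PT2385, a difference of 0.20 (SE 0.13, limma adjusted p = 0.51). In both genes PT2385 replicate 1 stood above the other 5 arrays, which lay closer together. Sdhd, a membrane anchor, had 10.13, 10.29 and 10.22 with vehicle and 10.57, 10.26 and 10.16 with PT2385, a difference of 0.12 (SE 0.12). Sdhc, the other anchor, had a difference of 0.11 (SE 0.12). Without PT2385 replicate 1 the median of complex II was 0.0518, with 0.0972 for Sdha, 0.0691 for Sdhb, 0.0346 for Sdhc and -0.0041 for Sdhd. Without PT2385 replicate 3 the median was 0.253, and without vehicle replicate 2 Sdhc had 0.0112.

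Complex III had a median difference of 0.12, with 6 of 6 genes higher on average in the PT2385 group and differences from 0.02 to 0.18. Uqcrq, a small subunit with no redox centre, had 9.98, 9.91 and 9.88 with vehicle and 10.00, 10.13 and 10.19 with PT2385, a difference of 0.18 (SE 0.10, limma adjusted p = 0.414). Here PT2385 replicate 1 was the lowest of its group and lay just above the vehicle arrays. Uqcrb, the brightest cluster of the complex and likewise a small subunit, had 12.26, 12.10 and 12.11 with vehicle and 12.38, 12.28 and 12.25 with PT2385, groups that overlapped by 1 array and differed by 0.14 (SE 0.10).

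Uqcrc1, a core protein on the matrix side, had 9.68, 9.63 and 9.67 with vehicle and 9.84, 9.75 and 9.76 with PT2385, groups that did not overlap, with a difference of 0.12 (SE 0.09). Cyc1, the haem protein cytochrome c1 that hands electrons to cytochrome c, had 9.04, 9.12 and 8.96 with vehicle and 9.17, 9.27 and 9.03 with PT2385. Its groups overlapped and its difference was 0.12 (SE 0.10), or 0.0648 without PT2385 replicate 2. The other core protein gene, Uqcrc2, had a difference of 0.11 (SE 0.14), and Uqcrfs1, the Rieske iron-sulfur protein, had 0.02 (SE 0.10). Both turned negative without PT2385 replicate 1 (-0.0446 and -0.0492) and with array weights (-0.00858 and -0.0272), and Uqcrfs1 also without vehicle replicate 3 (-0.0121) and with centred arrays (-0.0219). With each array centred on its median, the median of complex III was 0.0755.

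Cycs, which encodes the carrier that moves electrons from complex III to complex IV and which triggers apoptosis when it leaves the mitochondrion, had 11.90, 11.89 and 11.80 with vehicle and 11.77, 11.72 and 11.74 with PT2385. All 3 PT2385 arrays lay below all 3 vehicle arrays, by a gap of a few hundredths at the nearest. The difference was -0.12 (SE 0.09, limma adjusted p = 0.573), a ratio of 0.921. No other gene of the 41 had this separation, and Cycs lost it under cyclic loess.

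Complex IV had a median difference of 0.25, a ratio of 1.19, with 9 of 9 genes higher on average in the PT2385 group and differences from 0.07 to 0.32. In 7 of the 9 all PT2385 arrays lay above all vehicle arrays (77.8%, against 11.6% of all clusters), and 6 of the 9 had an unadjusted p under 0.05 with a higher mean (66.7%, against 7.94%). Cox7b, a small subunit gene on the X chromosome, had 10.81, 10.75 and 10.73 with vehicle and 11.12, 11.07 and 10.98 with PT2385, a difference of 0.29 (SE 0.09, limma adjusted p = 0.214). Cox5b, a zinc-binding subunit on the matrix side, had 10.59, 10.56 and 10.59 with vehicle and 11.10, 10.88 and 10.74 with PT2385, a difference of 0.32 (SE 0.11, limma adjusted p = 0.25). The vehicle values of Cox5b were almost equal, while its PT2385 values were spread out.

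Cox8a, a single-helix membrane subunit, had 11.08, 10.97 and 10.97 with vehicle and 11.37, 11.26 and 11.20 with PT2385, a difference of 0.27 (SE 0.10, limma adjusted p = 0.256). Cox6c, the brightest cluster of the complex, had 12.09, 12.07 and 12.14 with vehicle and 12.37, 12.25 and 12.20 with PT2385, a difference of 0.17 (SE 0.09), again with no overlap. Cox4i1 and Cox5a, which join the catalytic core early in assembly, and Ndufa4 had differences of 0.22, 0.25 and 0.21 and no overlap. Cox7a2, the dimmest cluster of the complex, had the widest spread, with 10.13, 9.78 and 9.54 for vehicle against 10.14, 10.04 and 10.05 for PT2385. Its groups overlapped because vehicle replicate 1 was as high as the PT2385 arrays, and its difference was 0.26 (SE 0.15), or 0.414 without vehicle replicate 1 and 0.117 without vehicle replicate 3. Cox6a1, the form of subunit 6a found outside heart and muscle, overlapped as well, with 0.07 (SE 0.09).

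Complex V had a median difference of 0.13, or 0.0833 with each array centred on its median, with 5 of 5 genes higher on average in the PT2385 group. Atp5o, which encodes the stalk subunit that gives oligomycin sensitivity, had 10.24, 10.24 and 10.10 with vehicle and 10.54, 10.43 and 10.36 with PT2385, with no overlap and a difference of 0.25 (SE 0.10, limma adjusted p = 0.298). Atp5c1, the rotating gamma subunit, had 11.27, 11.13 and 11.03 with vehicle and 11.41, 11.32 and 11.22 with PT2385. Its groups overlapped, and its difference was 0.17 (SE 0.10, limma adjusted p = 0.486).

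The catalytic head is built of alpha and beta subunits. Atp5a1 (alpha) had 12.08, 12.09 and 12.19 with vehicle and 12.37, 12.20 and 12.18 with PT2385, a difference of 0.13 (SE 0.10), or 0.0677 without PT2385 replicate 1. Atp5b (beta) had 12.20, 12.12 and 12.18 with vehicle and 12.36, 12.29 and 12.22 with PT2385, a difference of 0.12 (SE 0.09). The groups were just apart for Atp5b and overlapped for Atp5a1. Atp5d, the delta subunit, had 11.08, 11.04 and 10.95 against 11.12, 11.12 and 11.14, a narrow separation with a difference of 0.10 (SE 0.09).

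**Figure D2:**
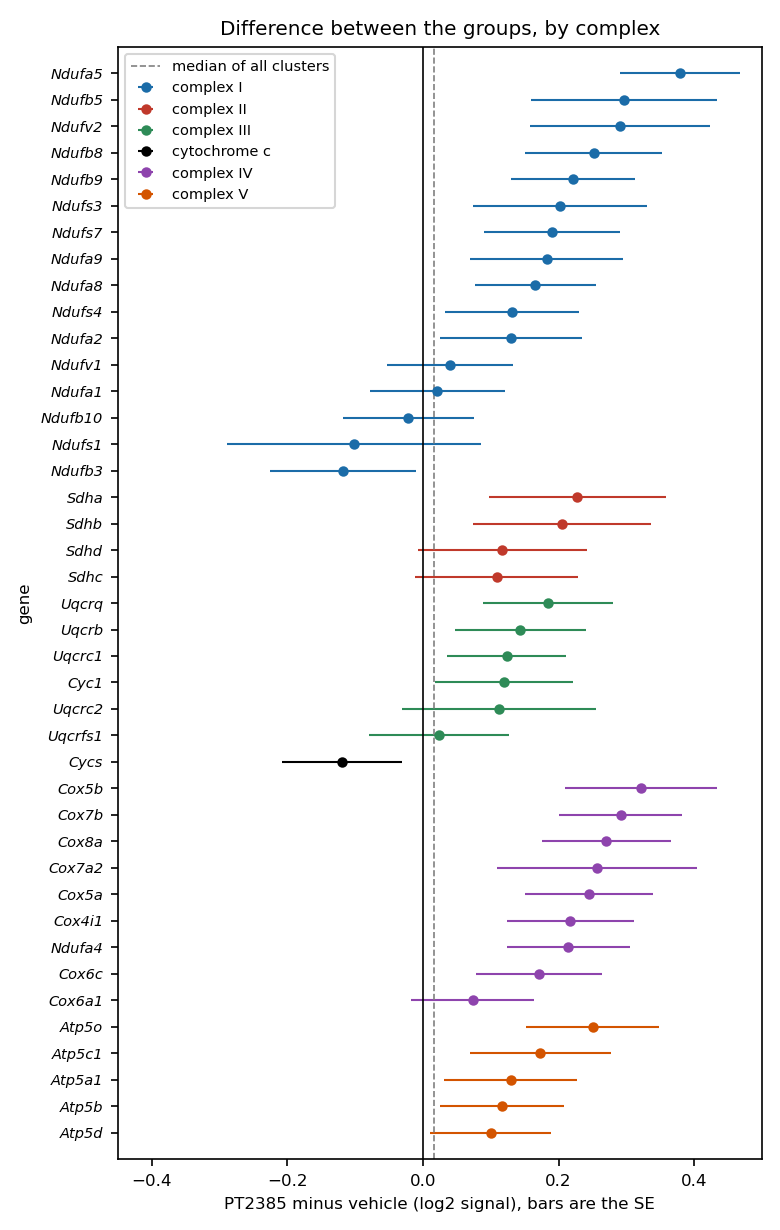
Points give the difference in log2 signal, PT2385 minus vehicle (3 arrays each), for each of the 41 genes, bars the SE from limma, colours the complex and the dashed line the median of all 22206 clusters (0.02). The 9 complex IV genes lie between 0.07 and 0.32, and the 4 genes to the left of 0 are Ndufb10, Ndufs1, Ndufb3 and Cycs.

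Subunits outside the list were examined in the same fit. A further 37 measured genes were listed as nuclear-encoded subunits of complexes I, III, IV and V. Among these 37 are Atpif1, Dmac2l and Cox7a2l, which encode associated proteins. Of the 37 genes, 0 passed the adjusted threshold and 9 were higher at an unadjusted p under 0.05 (24.3%, against 7.94% of all clusters). The mean was higher in the PT2385 group for 36 of the 37 genes, with a median difference of 0.15 over all of them. In 19 of them (51.4%, against 11.6% of all clusters) all PT2385 arrays lay above all vehicle arrays. In complex I, Ndufa12 (0.32, SE 0.11) and Ndufs5 (0.29, SE 0.11) had the smallest p-values, and all 19 measured genes had a higher mean. In complex V, 11 of 12 did, and Atp5g1 (0.30, SE 0.10) and Atp5g2 (0.28, SE 0.10), genes for the ring of c subunits through which protons pass, had the smallest p-values. The 3 further genes of complex III had a median of 0.09, with Uqcrh at 0.21 (SE 0.10) and Uqcr11 at 0.09. The 3 further genes of complex IV had a median of 0.02, with Cox6b1 at 0.09 (SE 0.09) and Cox7c at 0.02 (SE 0.09). Cox7c is very bright (12.84 to 12.93), and its sign turned when each array was centred on its median (-0.0217) and without PT2385 replicate 1 (-0.00275).

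The mitochondrial genome encodes further subunits of complexes I, III, IV and V. The array had 9 clusters on the mitochondrial genome, which the annotation used here leaves without a gene name. Which of these 9 clusters stand for subunits is therefore not known. Their differences ran from 0.0042 to 0.12 with a median of 0.06, and their limma adjusted p-values were 0.71 or more. Separate groups were seen in 0 of 9, and in all clusters for 11.6% with PT2385 higher and 9.13% with it lower. Most of the 9 lay near the array maximum of 13.39 to 13.49, where signals can be compressed. The 2 dimmest, with mean signals of 9.99 and 11.63, had differences of 0.0890 and 0.12 and overlapping groups.

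The other mitochondrial gene lists given in this paragraph had medians near that of all clusters. Of their members 0 passed the adjusted threshold, which 0.829% of all clusters passed. Of 43 assembly factors, the proteins that build the complexes, 21 had a higher mean and the median was -0.01. The smallest p-values belonged to Cox15, needed for the haem of complex IV, at -0.40 (SE 0.12), and to the complex I factor Ndufaf6 at -0.39 (SE 0.12), both with all PT2385 arrays below all vehicle arrays. Of 16 genes of the tricarboxylic acid cycle and pyruvate dehydrogenase, 8 had a higher mean and the median was 0.0078, with Idh3b at 0.23 (SE 0.10) and Dlst at -0.23 (SE 0.14). Of 22 other mitochondrial membrane and matrix proteins 12 had a higher mean (median 0.0074), with the chaperonin gene Hspd1 and the import receptor gene Tomm20 both at -0.21. Of 75 mitochondrial ribosomal protein genes 35 had a higher mean (median -0.0075), with Mrpl16 at -0.30 and Mrpl14 at -0.31. No test of the difference between these lists and the subunits was made.

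**Figure D3:**
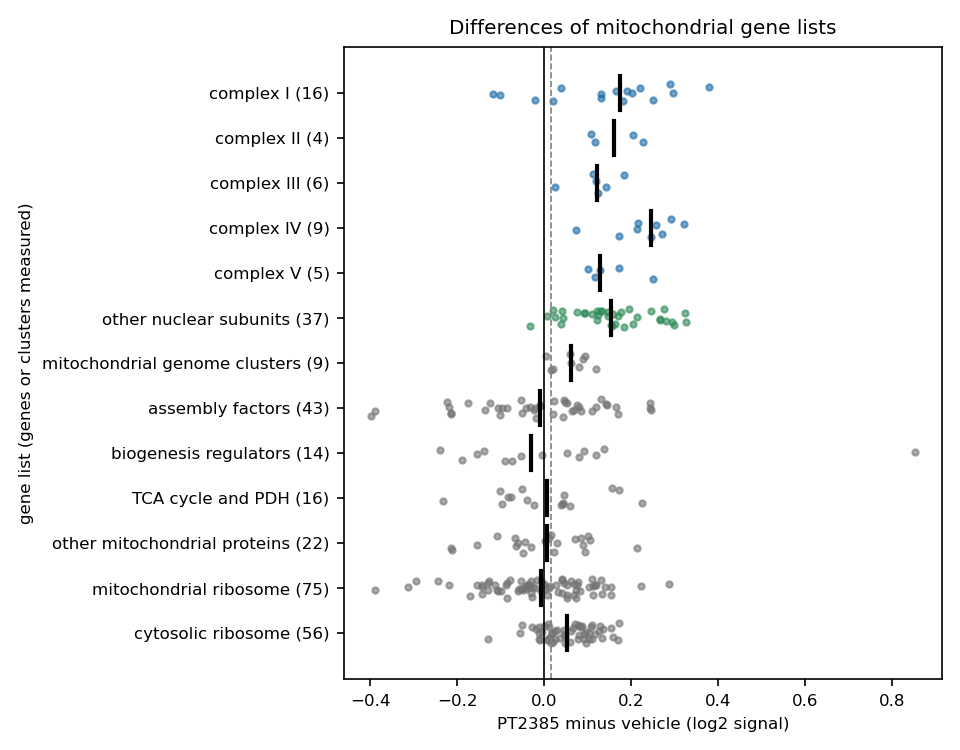
Each point is 1 gene or cluster, placed by its difference in log2 signal (PT2385 minus vehicle), black bars are list medians and the dashed line is the median of all clusters. The 5 complexes have medians from 0.12 to 0.25, and the further nuclear-encoded subunits, a list that includes some associated proteins, 0.15. Assembly factors, citrate cycle, mitochondrial ribosome and other mitochondrial proteins have medians between -0.01 and 0.0078. The point far to the right is Ppargc1a.

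Among 14 measured regulators of mitochondrial biogenesis, Ppargc1a stood apart. It encodes PGC-1α, a coactivator that works with NRF1, GABP and the estrogen-related receptors to raise respiratory gene expression and that is abundant in the kidney. Its log2 signal was 9.83, 9.63 and 9.77 with vehicle and 10.92, 10.59 and 10.29 with PT2385, groups that did not overlap. The difference of 0.85 (SE 0.16, limma adjusted p = 0.0534) missed the threshold over all clusters. It passed with the replicate number as a block (adjusted p = 0.0405), with quantile normalization (0.039), with only the brighter clusters (0.044), with a trended and robust eBayes fit (0.0313), with array weights (0.0171) and without PT2385 replicate 3 (0.0218). Ppargc1a missed the threshold with centred arrays (limma adjusted p = 0.0574), with cyclic loess (0.0511) and with only clusters above the median background row (0.0535). It also missed it with 1 cluster per gene (0.0542), without the X and Y chromosomes (0.0555) and without PT2385 replicate 1 (0.0638). Its adjusted p was 0.233 without PT2385 replicate 2 and between 0.143 and 0.193 without any 1 vehicle array. Nrf1 (0.09, SE 0.09), Gabpa (-0.09, SE 0.10) and Tfam (0.14, SE 0.14), which encodes the packaging factor of mitochondrial DNA, had overlapping groups, and Polrmt, the mitochondrial RNA polymerase gene, had -0.24 (SE 0.12). Every value of Tfam and Polrmt lay below the brightest background control value of 7.47, so little can be read from their differences. The median of the list was -0.03.

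The arrays of the PT2385 group were not alike. Averaged over the 41 genes, the deviation from each gene's mean was -0.03, -0.11 and -0.09 in vehicle replicates 1, 2 and 3 and 0.18, 0.05 and 0.0024 in PT2385 replicates 1, 2 and 3. PT2385 replicate 1 was thus the highest array, replicate 3 lay near the average, and the vehicle arrays were all below it. For complex IV the 3 PT2385 arrays had 0.20, 0.10 and 0.05, all above the vehicle arrays (-0.14 to -0.07). For complex II PT2385 replicate 1 had 0.31 and replicate 3 had -0.08, within the vehicle range of -0.13 to -0.04. Without PT2385 replicate 1, 34 of the 41 genes still had a higher mean in the PT2385 group, and the medians of complexes I, III, IV and V were 0.13, 0.10, 0.22 and 0.10.

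Markers of the nephron segments moved along with the arrays. The 10 markers of thick ascending limb and distal convoluted tubule all had a higher mean with PT2385 (median difference 1.13). Their mean deviation was 1.15, 0.50 and 0.09 in PT2385 replicates 1, 2 and 3, and every vehicle array lay from -0.63 to -0.52. Of these, the tight junction gene Cldn19 passed the adjusted threshold (1.24, SE 0.18, limma adjusted p = 0.0259), a call lost without vehicle replicate 1 or 2 or PT2385 replicate 2 (adjusted p up to 0.149), and the potassium channel gene Kcnj1 had 0.90 (SE 0.20). All 10 collecting duct markers had a positive difference too (median 0.46), with the water channel gene Aqp2 at 1.10 (SE 0.20) and the sodium channel gene Scnn1b at 0.54 (SE 0.10). Of 12 proximal tubule markers, with signals from 9.51 to 12.28, 6 had a positive difference. Their mean deviation was 0.52, -0.03 and -0.50 in PT2385 replicates 1, 2 and 3 and -0.20 to 0.14 in the vehicle arrays. The organic anion transporter gene Slc22a6 fell by 0.97 (SE 0.10, limma adjusted p = 0.00572, and at most 0.0333 in the alternatives), while Slc22a8 had 0.45 (SE 0.19). The part of these shifts in the respiratory chain values was not tested, and in such bulk isolates fewer cells of a segment cannot be told apart from less RNA per cell.

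**Figure D4:**
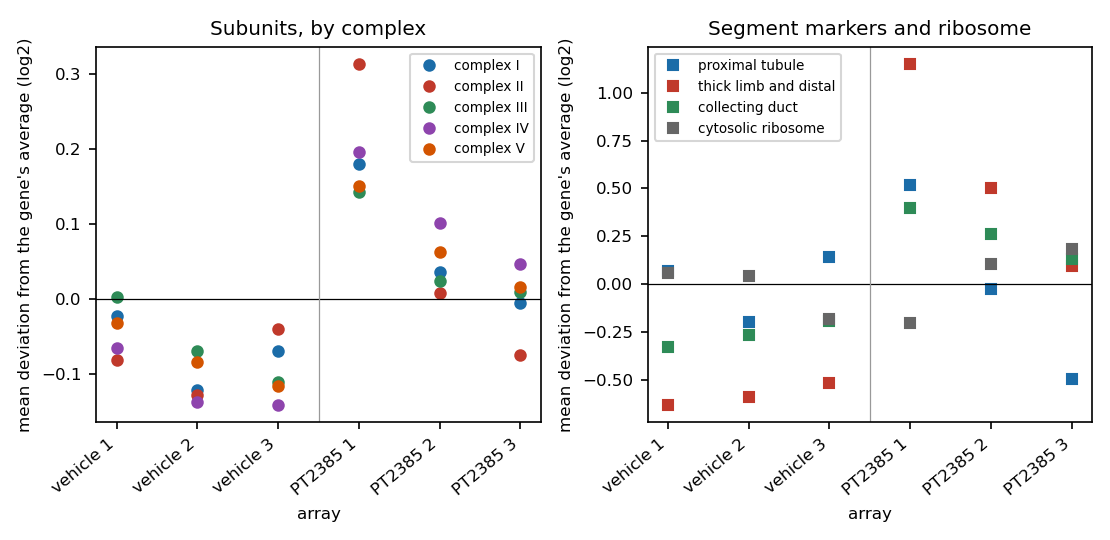
For each array, the left panel shows the mean deviation (log2) of each complex from its genes' averages over the 6 arrays, and the right panel, on a wider scale, the same for segment markers and cytosolic ribosomal protein genes. PT2385 replicate 1 is highest for all 5 complexes and for all 3 sets of segment markers, and it is the lowest array for the cytosolic ribosomal protein genes.

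Leukocyte markers ran the other way in part. Of 9 macrophage and monocyte markers 5 had a negative difference and 4 a positive one, up to 0.23. The list median was -0.05, as over the brighter clusters, so the list as a whole hardly moved. Lyz2, a lysozyme gene, fell by 1.19 (SE 0.16, limma adjusted p = 0.0202), a call lost without vehicle replicate 3 or PT2385 replicate 2 (adjusted p up to 0.131). The integrin gene Itgam, which was not among the clusters brighter than every background control row, had -0.95 (SE 0.21). Of 7 neutrophil markers 5 had a negative difference (list median -0.24). The receptor gene Csf3r fell by 1.04 (SE 0.16, limma adjusted p = 0.0326), a call lost without any 1 vehicle array or PT2385 replicate 2 (adjusted p up to 0.15), while S100a8 had -1.56 (SE 0.34). Every neutrophil marker value, 6.92 at most, lay below the brightest background control value of 7.47. The mean deviation of the macrophage list spanned 0.01 to 0.38 with vehicle and -0.33 to -0.02 with PT2385. That of the neutrophil list was 0.17 to 0.39 with vehicle and -0.56 to 0.04 with PT2385. Their part in the respiratory chain values was not tested.

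Cytosolic ribosomal protein genes did not follow the same arrays, and the cause was not tested. Of 79 listed genes 56 were measured. The mean was higher with PT2385 for 45 of the 56 (80.4%, against 53.5% of all clusters), and the median difference was 0.05. None had separate groups, where 11.6% of all clusters were separate with PT2385 higher and 9.13% with it lower. None had an unadjusted p under 0.05 in limma, where 7.94% of all clusters did with a higher mean and 6.54% with a lower one. Rps15 (0.15, SE 0.11) and Rpl38 (0.17, SE 0.13) had the smallest p-values. Their mean deviation was 0.06, 0.04 and -0.19 for vehicle replicates 1, 2 and 3 and -0.20, 0.10 and 0.18 for those of PT2385, so that PT2385 replicate 1, the highest array for the respiratory chain, was the lowest for these genes.

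The groups also differed in transcripts of the Y chromosome, which touches every difference given above. Eif2s3y had log2 signals of 9.09, 9.24 and 9.28 with vehicle and 3.27, 3.04 and 3.34 with PT2385, and Uty had 8.76, 8.63 and 8.58 against 3.25, 2.85 and 2.86. An effect of PT2385 and a difference in sex between the groups cannot be told apart here. Leaving out the X and Y chromosomes, which removes Ndufa1 and Cox7b, gave medians of 0.18 for complex I and 0.23 for complex IV and 0 genes past the threshold.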

How the data were processed

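RNA from the 6 samples was labelled with biotin and hybridised to 1 Affymetrix whole-transcript array each, per the labels' protocols. The authors deposited log2 signals, processed with Transcriptome Analysis Console per the submitters' processing notes; how background was corrected, signals normalized and which genome build applied is not given in the sources used here. Of 28846 rows, 6640 control rows were left out, and all 22206 transcript clusters were tested, 19572 of them with 1 gene symbol. No low values were filtered.

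Differences are PT2385 minus vehicle, 3 arrays each, from limma 3.58.1 (lmFit and eBayes) in R 4.3.3, with Benjamini-Hochberg adjustment over all clusters and a threshold of 0.05. The procedure was tested on simulated data. The labels do not tie samples to animals. The p-values therefore cover the variation among these 6 samples alone, possibly technical, and the number of arrays limits the precision. The group was taken from the sample titles. The members and lists were chosen with earlier results of these data known. In each complex, values are given for the 3 genes with the smallest p, the brightest, the dimmest and any with a negative difference, and in each other list for the 2 with the smallest p and any past the threshold. Other genes named with a difference (such as Nrf1, Gabpa and Tfam) were chosen after their values were seen. Alternatives were a replicate block, other scalings, filters against background rows, 1 cluster per gene, leaving out the sex chromosomes, trended and robust eBayes, array weights and leaving out each array.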

Additional observations from a re-analysis of the deposited data

How the results depend on the processing

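None of the 41 genes passed the threshold under any alternative run, though some runs came close. The smallest limma adjusted p among them was 0.0541 with only the brighter clusters, 0.0564 with array weights and 0.0807 with trended and robust eBayes. Without PT2385 replicate 2 it was 0.367, the highest of the runs. A higher mean in the PT2385 group was found for 34 to 38 of them under the other settings and 34 to 39 when 1 array was left out (main 37). Separate groups with PT2385 higher were found for 13 genes with centred arrays, 21 with quantile normalization and 18 with cyclic loess (main 17). The share of all clusters with this separation was counted in the main fit only (11.6%), so the counts under other scalings have no such share beside them. These counts under other settings, and the alternatives for genes outside the naming rule, were added after seeing the data. No complex median changed sign. Centring moved those of complexes III and V to 0.0755 and 0.0833, and without PT2385 replicate 1 or 3 that of complex II was 0.0518 or 0.253. The clusters past the threshold numbered 184, 178 with the replicate block, 456 with array weights, 150 to 205 under the other settings and 42 to 179 without 1 array. Leaving out PT2385 replicate 2 gave the lowest count (42), and leaving out vehicle replicate 1, 2 or 3 gave 81, 65 or 72. Same-numbered samples did not deviate together (r of 0.138, 0.0252 and -0.0587), so the numbers were not taken as pairs, and the replicate block called none of the 41.

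Among the 41, by setting, 3 signs turned with centred arrays (Ndufa1, Ndufv1 and Uqcrfs1), 2 with array weights (Uqcrc2 and Uqcrfs1) and 3 without PT2385 replicate 1 (Sdhd, Uqcrc2 and Uqcrfs1). Without vehicle replicate 2 that of Ndufa1 turned, and without vehicle replicate 3 those of Ndufa1 and Uqcrfs1. A difference moved by over 1.5 times, turned signs included, for 15 of the 41 with centred arrays and 13 without PT2385 replicate 1. Signs also turned for Ndufb10 with quantile normalization (0.0304) and cyclic loess (0.019) and without 1 array (-0.0856 to 0.0135), and for Cox7c with centred arrays (-0.0217) and without 1 array (-0.00275 to 0.0432). Ranges without 1 array also crossed 0 for Ndufs1 (-0.32 to 0.018), Sdhd (-0.0041 to 0.20) and the endothelial gene Cdh5 (-0.23 to 0.00978). The cause was not tested. A mean over several clusters of a gene was not run, since each of the 41 has 1 cluster. With 3 arrays a group, Ndufa5 was not called at a difference of 0.38 and an SE of 0.09, so a missed threshold does not show equal levels.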

Other observations

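Of 9 respiratory and mitophagy genes known to respond to hypoxia, 0 passed the adjusted threshold in limma (against 0.829% of all clusters). At an unadjusted p under 0.05 in limma there were 0 (against 7.94% of all clusters higher and 6.54% lower). The mean was higher in the PT2385 group for 7 of the 9, with a median difference of 0.08. The mitophagy receptor gene Bnip3l had a difference of 0.17 (SE 0.09, limma adjusted p = 0.46) with all PT2385 arrays above all vehicle arrays. Cox4i2, the form of subunit 4 that is abundant in lung, had 0.16 (SE 0.13, limma adjusted p = 0.603), and Ndufa4l2, a well-known HIF target, had -0.05 (SE 0.19, limma adjusted p = 0.92). Every value of Cox4i2 and Ndufa4l2 lay below the brightest background control value of 7.47, so little can be read from their differences.

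The 8 muscle, lung or testis forms of respiratory chain proteins had mean log2 signals of 2.91 to 6.70. Every value of these 8, 7.12 at most, lay below the brightest background control value of 7.47. All 8 had overlapping groups, as did 17607 of all 22206 clusters. Cox7b2, a testis form, had the smallest p among them, with a difference of 0.16 (SE 0.10, limma adjusted p = 0.525).

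Of 7 endothelial markers 5 had a positive difference (median 0.11), with Plvap at 0.34 (SE 0.15) and Cdh5 at -0.14 (SE 0.14). Of 7 fibroblast and pericyte markers 6 did (median 0.14), with Lum at 0.45 (SE 0.13) and Dcn at 0.51 (SE 0.21). Of 4 podocyte markers 3 did (median 0.06), with Wt1 at 0.27 (SE 0.15) and Podxl at 0.08 (SE 0.10). Lum and Wt1 were not among the clusters brighter than every background control row.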
